A study of Mus musculus with 6 samples.

Results

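The mammalian mitochondrial ribosome is built from RNAs encoded in mitochondrial DNA and from proteins that are all encoded in the nucleus. The genes of these proteins were taken from the deposited expression tables by name, as every row whose symbol starts with Mrpl or Mrps followed by a digit. The rule found 77 of 36930 features, and all 77 passed the filter for testing, an average of 1 RPKM or more across all 6 libraries (RPKM is the number of reads scaled to gene length and to library size). Of these, 50 are proteins of the large subunit, 26 are proteins of the small subunit, and 1, Mrps36, carries the symbol but is known as a component of the alpha-ketoglutarate dehydrogenase complex. Mrps18a and Mrps30 are counted with the large subunit, where structural work placed them in spite of their names. The symbol rule misses ribosomal proteins with other names, which are described with the wider pathway, and Mrpl58, which the tables list as Ict1.

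RNA was sequenced from regulatory T cells (Tregs) that were purified by FACS from the BM of 3 mice with chronic myeloid leukemia (CML) and of 3 naive mice without leukemia, with 1 library per mouse. All 6 mice were Foxp3-DTR-GFP animals, which express the diphtheria toxin receptor and GFP from the Foxp3 locus, and were labelled as 8 weeks old. CML was induced in mice that had not been irradiated by injecting syngeneic stem and progenitor cells carrying a BCR-ABL1-GFP retrovirus, and Tregs were taken on day 15. Both the leukemia vector and the Foxp3 allele of this model carry GFP. The naive mice received no leukemia cells, and no diphtheria toxin treatment is given in the labels for either group.

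Mitochondrial ribosomes make the core subunits of the respiratory chain and of the ATP synthase that are still encoded in mitochondrial DNA. The small subunit holds the mRNA and decodes it, and the large subunit joins the amino acids and guides the new protein into the inner membrane. The core of the particle is inherited from bacteria, and many proteins that occur only in mitochondria have been added to it. Here 47 members have a bacterial homolog and 29 are specific to mitochondria. In T cells, activation is known to raise mitochondrial protein synthesis, and Tregs are known for their use of oxidative phosphorylation.

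The promoters of 4 members are shown because the results turn on these genes: Mrps6 and Mrpl41 had the largest fold changes among members whose CML values all lay above the naive values, Mrps12 had the clearest lower values, and Mrpl52 was the most abundant member. Each line gives the 250 bases before the start of the gene from RefSeq (GRCm38.p6), 5′ to 3′ in the direction of the gene, and capitals mark matches to an SP1 motif (GGGCGG) or an ETS motif (CCGGAAG) on either strand.
Mrps6, chr16:92058086-92058335, plus strand: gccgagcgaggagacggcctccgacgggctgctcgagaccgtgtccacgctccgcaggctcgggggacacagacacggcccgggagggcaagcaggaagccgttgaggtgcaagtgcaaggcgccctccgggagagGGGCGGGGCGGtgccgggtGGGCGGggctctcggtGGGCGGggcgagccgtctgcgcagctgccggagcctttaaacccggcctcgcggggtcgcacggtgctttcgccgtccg
Mrpl41, chr2:24975099-24975348, minus strand: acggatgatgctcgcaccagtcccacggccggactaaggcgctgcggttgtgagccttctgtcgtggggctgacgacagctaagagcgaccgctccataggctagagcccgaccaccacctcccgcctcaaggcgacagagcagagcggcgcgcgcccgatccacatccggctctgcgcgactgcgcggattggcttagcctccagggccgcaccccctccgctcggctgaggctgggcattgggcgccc
Mrps12, chr7:28741822-28742071, minus strand: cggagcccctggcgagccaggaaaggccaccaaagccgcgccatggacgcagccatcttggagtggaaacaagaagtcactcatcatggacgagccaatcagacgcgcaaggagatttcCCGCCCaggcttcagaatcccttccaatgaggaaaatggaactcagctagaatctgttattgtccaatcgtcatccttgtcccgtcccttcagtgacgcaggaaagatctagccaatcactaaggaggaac
Mrpl52, chr14:54426659-54426908, plus strand: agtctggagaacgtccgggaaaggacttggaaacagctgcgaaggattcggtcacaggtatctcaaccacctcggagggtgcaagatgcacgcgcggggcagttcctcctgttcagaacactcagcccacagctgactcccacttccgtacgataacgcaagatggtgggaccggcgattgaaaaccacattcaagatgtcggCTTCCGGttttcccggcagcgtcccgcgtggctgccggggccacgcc
The Mrps6 promoter held 4 SP1 motifs, of which 2 overlapped, and the Mrps12 promoter held 1 SP1 motif. The Mrpl52 promoter held 1 ETS motif. The Mrpl41 promoter held neither of these motifs and also no match to the NRF1 or YY1 motif described next.

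RefSeq windows of 300 bases, 250 before and 50 after the gene start, were found for 68 of the 77 members and searched on both strands for 4 short motifs of factors known to act on housekeeping and mitochondrial genes. The ETS motif CCGGAAG occurred in 25 of the 68 windows (36.8%), against 20.9% of the 9166 windows of tested genes and 9.93% of all 27025 windows. The NRF1 motif (GCGCA and GCGC separated by 1 base of any kind), named for nuclear respiratory factor 1, occurred in 13 (19.1%), against 11.6% of tested genes and 5.19% of all windows. The YY1 motif AAGATGGCG occurred in 8 (11.8%), against 3.71% and 1.64%. SP1 went the other way among tested genes: GGGCGG occurred in 34 member windows (50%), against 66.1% of tested genes and 38.2% of all windows. These matches are descriptions of letters and were not tested.

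The members are spread over 17 chromosomes, with 10 on chromosome 11, 8 on chromosome 17, 7 on chromosome 6 and 6 on chromosome 7. In the GENCODE M21 annotation (GRCm38), Mrps6 lies at chr16:92058270-92112227 on the plus strand, Mrpl41 at chr2:24974117-24975098 on the minus strand, Mrps12 at chr7:28739641-28741820 on the minus strand and Mrpl3 at chr9:105053239-105079888 on the plus strand. A gene start on the opposite strand within 1 kb, a head-to-head arrangement, was found for 20 members (25.97%), against 1753 of 10524 protein-coding genes tested (16.7%). Mrps12 faces Sars2, the mitochondrial seryl-tRNA synthetase, in this way, Mrpl49 faces Fau, and Mrpl41 faces Pnpla7. Exons on the opposite strand overlapped 27 members. These included Mrps7 (with Gga3 and Mif4gd), Mrpl43 (with Twnk), Mrpl48 (with Rab6a), Mrpl49 (with Syvn1) and Mrpl3 (with Gm47106). Exons of another gene on the same strand overlapped 8, among them Mrps6 (with Slc5a3 and Gm49711) and Mrpl3 (with Gm38077). The library kit does not mark strand, so reads in such overlaps cannot be assigned to one gene. That limit holds for the values of these genes given below.

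The depth behind each value could be recovered for most members. RPKM multiplied by the coding length and by the estimated number of reads gave whole numbers, within 0.05 of a read, for 71.9% to 75.7% of genes with a single coding length and up to 20 reads, against 10% by chance. By this measure 53 of the 77 members had whole reads in every library. The estimated library totals were 7613430, 829201 and 2286147 reads in CML replicates 1 to 3 and 5188379, 8771721 and 9751240 reads in naive replicates 1 to 3. The 53 members together took 5669, 527 and 2193 reads in the CML libraries and 3985, 6800 and 6744 reads in the naive libraries. The median member had 92, 7 and 32 reads in CML and 62, 99 and 107 reads in naive libraries. In CML replicate 2, 32 of the 53 members rested on fewer than 10 reads, compared with 2 and 7 in the other CML libraries and at most 1 in any naive library. Reads for the remaining 24 members are estimates with the longest coding length, and all read counts and intervals cover counting error only, as copies made by amplification cannot be told from separate molecules here.

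**Figure D1:**
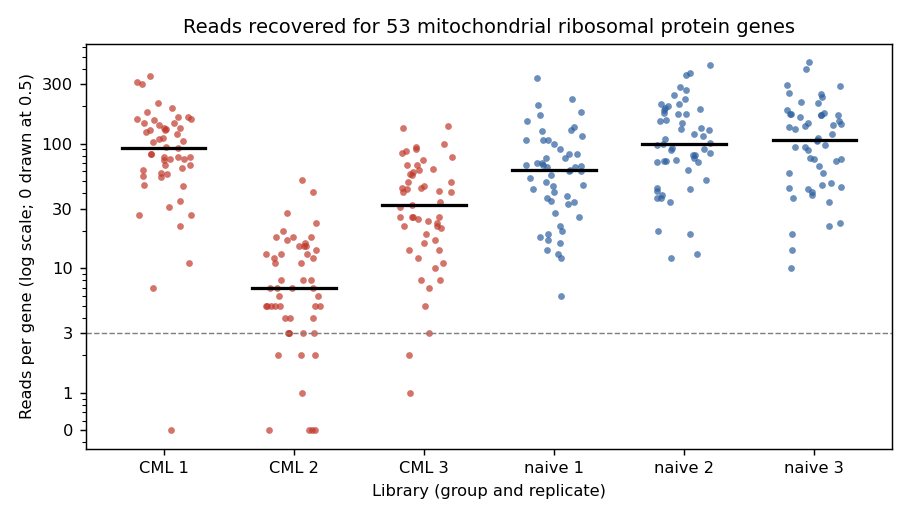
Reads recovered for each of 53 mitochondrial ribosomal protein genes (points) in each library, on a log axis with 0 drawn at 0.5; the black bars are medians (92, 7 and 32 reads in CML, 62, 99 and 107 in naive) and the dashed line marks 3 reads. CML replicate 2 has the lowest median.

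CML replicate 2 stood apart in other ways as well. Its 10 highest features took 50.7% of the summed RPKM, compared with 28.5% to 31.3% in the other 5 libraries. Erythroid markers summed to 35.6 to 208.7 RPKM in CML and 5.01 to 30.2 RPKM in naive libraries, with 8 of the 9 markers found higher on average in CML. Neutrophil and myeloid markers summed to 24.8 to 238.8 RPKM in CML and 39.9 to 61.6 RPKM in naive libraries, with 10 of 13 higher in CML and Ly6g at 0 in all libraries. Stem and progenitor markers summed to 13.6 to 24.4 RPKM in CML and 14.8 to 20.4 RPKM in naive libraries, with Mycn at 0, and the 2 CD8 T cell markers to 51.1 to 74.2 and 26.2 to 58.7 RPKM. Treg markers were abundant in both groups, at 1417 to 2005 RPKM in CML and 1414 to 1607 RPKM in naive libraries. Erythroid markers thus moved with the groups and the other lists given here overlapped between them, with myeloid markers highest in CML replicates 2 and 3, and their part in the results below was not tested. In such bulk samples fewer cells of a type and less RNA per cell cannot be told apart.

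Mitochondrial ribosomal protein mRNAs were about as abundant in CML Tregs as in naive Tregs when summed. The 77 members summed to 1744, 1404 and 2246 RPKM in the 3 CML libraries and to 1783, 1775 and 1576 RPKM in the 3 naive libraries. The CML values lay on both sides of the naive values, so the groups overlapped. The members made up 0.253%, 0.172% and 0.302% of all RPKM in CML and 0.254%, 0.251% and 0.235% in naive libraries. The median member stood at 17.1, 13.2 and 21.2 RPKM in CML and at 19.5, 18.4 and 18.5 RPKM in naive Tregs. CML replicate 2 was lowest and CML replicate 3 highest in all 3 of these measures.

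Levels, which RPKM gives per kilobase and which can therefore be compared between genes, ranged over more than an order of magnitude within the family. Mrpl52, a large subunit protein specific to mitochondria, was the most abundant, with 108.7, 135.1 and 164.9 RPKM in CML and 120.1, 116.2 and 111.0 RPKM in naive Tregs. Mrpl24, which sits at the exit of the peptide tunnel, followed with 63.8, 94.5 and 89.4 RPKM in CML and 100.7, 75.3 and 70.9 RPKM in naive Tregs. Both genes had overlapping groups. Mrps9, which reaches toward the peptidyl site of the small subunit, had 52.6, 39.7 and 113.5 RPKM in CML and 57.2, 69.6 and 64.7 RPKM in naive Tregs. Mrps21 had 39.3, 77.7 and 19.9 RPKM in CML and 47.5, 66.1 and 34.6 RPKM in naive Tregs. For both, the CML libraries took the lowest and the highest value. Mrps6 came next in mean level, at 42.3 RPKM over all libraries. The 5 least abundant members were Mrpl14 (mean 5.29 RPKM), Mrps27 (5.94), Mrpl34 (6.39), Mrpl23 (6.64) and Mrpl27 (6.73), and these neighbours in the order differed by less than their SDs.

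The order of the members was similar but not the same from library to library. Spearman's rho over the 77 members was 0.71 to 0.84 between naive libraries, 0.54 to 0.67 between CML libraries and 0.45 to 0.75 between the groups. These are descriptions across genes, which share a library, its depth and its annotation. Over the 49 members with whole reads and at least 1 read in every library, the median coefficient of variation was 27.3% among naive libraries, where counting alone would give 10.4%, and 33% among CML libraries, where counting alone would give 19.7%. Without CML replicate 2 the CML value was 27.7%, with 13.6% from counting.

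CML and naive Tregs were then compared gene by gene, with limma on log2(RPKM + 1) over 13923 features and Benjamini-Hochberg adjustment. No member passed an adjusted p of 0.05, and over all features 24 passed (0.172%; 0.0431% higher and 0.129% lower in CML). The smallest adjusted p of a member was 0.118, for Mrps6. At an unadjusted p under 0.05, 5 members were higher in CML (Mrps6, Mrpl41, Mrps7, Mrpl49 and Mrpl48) and 4 were lower (Mrps12, Mrps10, Mrpl3 and Mrps18a), against a background of 9.68% of all features (2.92% higher and 6.77% lower). Without CML replicate 2 these counts were 9 and 2, against 6.03% and 6.59% of all features in that fit, and without CML replicate 3 they were 5 and 9, against 2.64% and 8.97%. Leaving out naive replicate 1, 2 or 3 gave 4, 2 and 3 higher members, against 2.05%, 1.87% and 1.89% of all features. The same 3 fits gave 0, 1 and 1 lower members, against 4%, 3.79% and 4.71%. The 5 higher members were 6.49% and the 4 lower members 5.19% of the family.

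The family as a whole did not move in one direction. The log2 fold change was above 0 for 35 members and below 0 for 42, whereas 35.7% of all features were above 0. The median log2 fold change was -0.07 over the members and -0.18 over all features. The sign of the members' median changed with the scaling and with the libraries included, and the cause was not tested. The members' median became 0.04 after quantile normalization, with 43 members above 0. It was 0.001 and 0.01 after setting the 75th percentiles or the sums without the 10 highest features equal, with 39 members above 0 in each case. In these 2 settings the median of all features was -0.12 and -0.11. Quantile normalization moved the median of all features to -0.0068, so that the members stood slightly above it under each of these scalings. Without CML replicate 2 the members' median was 0.08, and that of all features was -0.03. Without CML replicate 3 the members' median was -0.22, and that of all features was -0.24. The 50 large subunit members had a median of -0.02, with 25 above and 25 below 0, and the 26 small subunit members had a median of -0.10, with 10 above and 16 below 0. Members with a bacterial homolog had a median of -0.07 and members specific to mitochondria a median of -0.05.

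**Figure D2:**
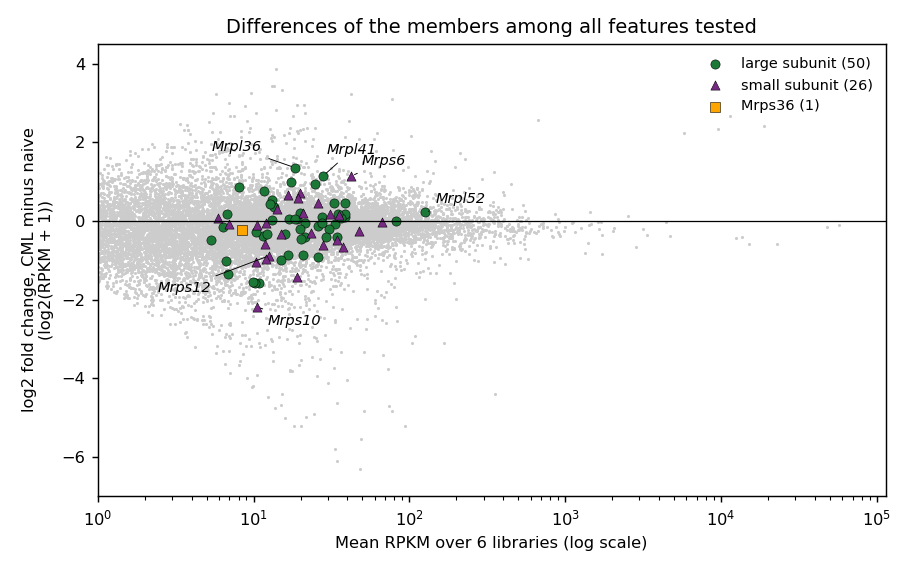
The log2 fold change between CML and naive Tregs on log2(RPKM + 1) against mean RPKM over 6 libraries (log axis), with all 13923 features tested in gray and the 50 large subunit members, 26 small subunit members and Mrps36 as colored symbols. The members lie on both sides of 0, from -2.18 for Mrps10 to 1.35 for Mrpl36, inside the cloud of other features.

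A fold change of at least 1.5 was reached by 10 members upward and 17 downward, against 8.58% and 22.5% of all features. The downward share of the members, 22.1%, was close to that background, and the upward share was 13.0%. Without CML replicate 2 the counts became 18 upward and 10 downward, and the shares of all features also shifted, to 13.01% and 17.2%. The groups did not overlap for 9 members: for 7 the lowest CML value exceeded the highest naive value, 9.09% of the family against 4.84% of all features, and 2 were lower, 2.60% against 12.2%. With 3 mice against 3, the exact permutation test of each of these 9 genes gave p = 0.1 (2-sided), the smallest value this design allows. Groups that do not overlap always give this p, so it was fixed by the choice of these genes and adds no support. With fewer libraries, groups fail to overlap more often in all features as well. The count of 7 became 20 without CML replicate 2, where 13.9% of all features were apart upward, and 12 without CML replicate 1, where 9.09% were. The count of 2 became 12, 14 and 6 without CML replicate 1, CML replicate 3 and naive replicate 3, where 23.2%, 22.6% and 17.9% of all features were apart downward.

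Among the small subunit members, Mrps6 showed the clearest separation. This homolog of bacterial S6 lies on the platform of the small subunit. Mrps6 had 54.9, 63.8 and 56.7 RPKM in CML and 28.6, 21.4 and 28.5 RPKM in naive Tregs. Every CML value lay well above every naive value, with means of 58.5 ± 4.71 and 26.2 ± 4.10 RPKM (SD, n = 3 per group). The reads behind these values were 158, 20 and 49 in CML and 56, 71 and 105 in naive libraries, and the 95% counting interval of CML replicate 2 (39.0 to 98.5 RPKM) still lay above the highest naive interval, which ended at 37.1 RPKM. The log2 fold change was 1.14 with an SE of 0.20, and limma gave an adjusted p of 0.118, with a range of 0.103 to 0.450 over the alternatives. Slc5a3, a transporter gene whose annotated exons overlap Mrps6 on the same strand, had 12.7, 11.2 and 6.69 RPKM in CML and 9.29, 11.6 and 11.0 RPKM in naive Tregs. The groups of Slc5a3 overlapped. Values of Gm49711, which also overlaps Mrps6 on that strand, are not given here.

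Mrps7, a homolog of a protein that starts the assembly of the small subunit head in bacteria, had 23.2, 26.5 and 24.6 RPKM in CML and 17.2, 12.7 and 15.1 RPKM in naive Tregs. The CML libraries were close to each other and all above the naive libraries. Its log2 fold change was 0.70 (SE 0.24; limma adjusted p = 0.425). Mrps23, which is specific to mitochondria, had 24.3, 27.8 and 39.4 RPKM in CML and 22.2, 22.5 and 20.1 RPKM in naive Tregs. The lowest CML value exceeded the highest naive value by less than the counting error of either, and the log2 fold change was 0.45 (SE 0.25; limma adjusted p = 0.595).

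Mrps12 was the clearest lower member. It is the homolog of bacterial S12 at the decoding center, where codon and anticodon are matched. Mrps12 had 8.44, 8.61 and 8.33 RPKM in CML and 19.7, 11.9 and 18.8 RPKM in naive Tregs, with means of 8.46 ± 0.14 and 16.8 ± 4.25 RPKM (SD, n = 3 per group). All CML values lay below all naive values, but on 27, 3 and 8 reads in CML and 43, 44 and 77 in naive libraries. The 3 reads of CML replicate 2 gave a 95% counting interval of 1.78 to 25.2 RPKM, which covers the naive values. The log2 fold change was -0.88 (SE 0.32; limma adjusted p = 0.433). Sars2, which starts next to Mrps12 on the other strand, had 16.6, 15.6 and 7.84 RPKM in CML and 13.4, 7.90 and 7.76 RPKM in naive Tregs, so its groups overlapped.

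Mrps10, in the head of the small subunit, had the largest negative log2 fold change of the family, -2.18 (SE 0.85; limma adjusted p = 0.476). It had 3.40, 0 and 8.41 RPKM in CML and 30.5, 12.7 and 8.00 RPKM in naive Tregs, and the groups overlapped between CML replicate 3 and naive replicate 3. The 0 in CML replicate 2 allows a level of up to 5.97 RPKM, that of 3 reads. The fitted value therefore depends on the pseudocount.

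**Figure D3:**
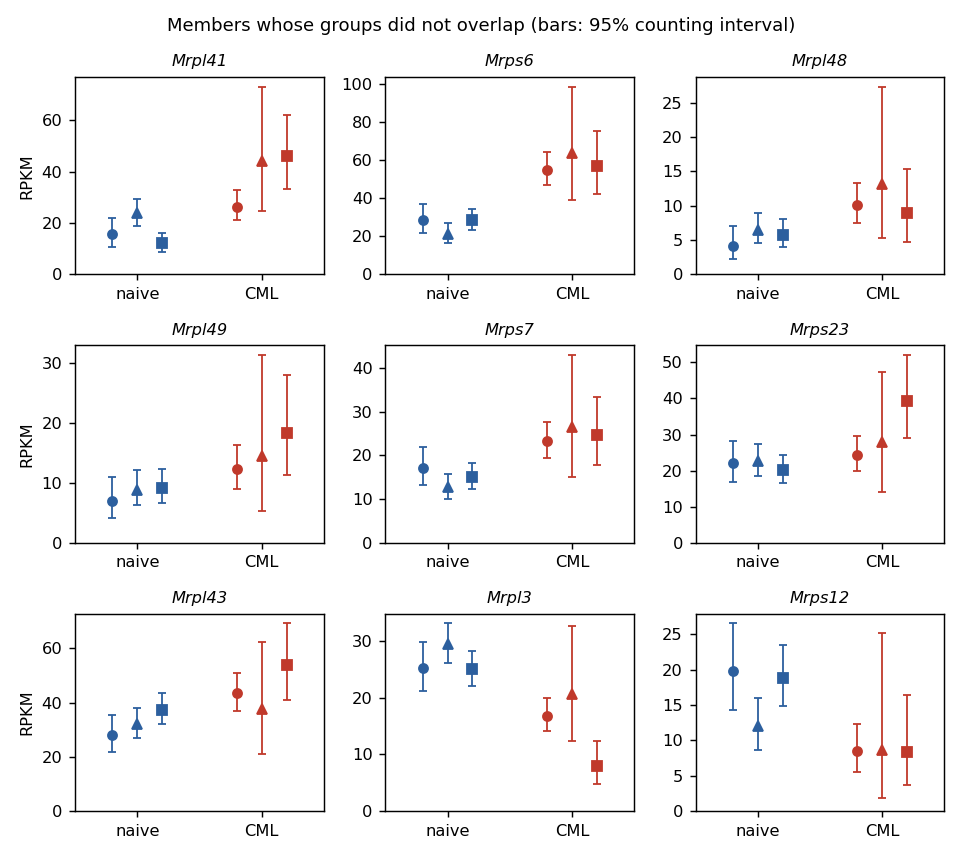
RPKM of the 9 members whose groups did not overlap, in naive (blue) and CML (red) Tregs, with circles, triangles and squares for replicates 1, 2 and 3 and bars for the 95% counting interval of each library. Mrps6 sits at 54.9 to 63.8 RPKM in CML and 21.4 to 28.6 RPKM in naive Tregs, and the widest bars are those of CML replicate 2.

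In the large subunit, 4 of 50 members (8.0%) had all CML values above all naive values, against 4.84% of all features. All 4 are specific to mitochondria, as are 20 of the 50, and all 4 were listed as differential by the study on these same libraries. Of the 29 members specific to mitochondria, 3 were at least 1.5-fold higher (10.3%) and 7 lower (24.1%). The shares of all features were 8.58% and 22.5%. Mrpl41, which has also been described as a partner of the apoptosis regulator Bcl-2, had 26.4, 44.3 and 46.1 RPKM in CML and 15.6, 23.8 and 12.1 RPKM in naive Tregs. The gap between CML replicate 1 and naive replicate 2 was small, and the means were 39.0 ± 10.9 and 17.1 ± 5.99 RPKM (SD, n = 3 per group). Its log2 fold change was 1.15 (SE 0.33; limma adjusted p = 0.309). Pnpla7, its head-to-head neighbour, had 22.9, 24.4 and 37.0 RPKM in CML and 32.5, 34.1 and 32.6 RPKM in naive Tregs, with overlapping groups.

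Mrpl48, a protein of the central protuberance, had 10.1, 13.2 and 8.96 RPKM in CML and 4.14, 6.43 and 5.73 RPKM in naive Tregs, and its log2 fold change was 0.87 (SE 0.36; limma adjusted p = 0.505). Mrpl49 had 12.3, 14.4 and 18.3 RPKM in CML and 6.93, 8.87 and 9.21 RPKM in naive Tregs, and its log2 fold change was 0.77 (SE 0.31; limma adjusted p = 0.496). In both genes CML replicate 2 rested on about 6 or 7 reads. Mrpl43 had 43.5, 37.7 and 53.8 RPKM in CML and 28.1, 32.1 and 37.4 RPKM in naive Tregs. CML replicate 2 and naive replicate 3 nearly met, and the log2 fold change was 0.45 (SE 0.22; limma adjusted p = 0.565). Fau, which faces Mrpl49, had 73.5, 84.0 and 101.2 RPKM in CML and 107.4, 107.5 and 75.8 RPKM in naive Tregs, and its groups overlapped.

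Mrpl3, a homolog of bacterial L3 near the peptidyl transferase center, was lower in every CML library. It had 16.8, 20.7 and 7.94 RPKM in CML and 25.2, 29.5 and 25.1 RPKM in naive Tregs. CML replicate 3 was lowest, on 19 reads, and the log2 fold change was -0.86 (SE 0.36; limma adjusted p = 0.505). Mrps18a, which is built into the large subunit, had 28.4, 10.2 and 16.3 RPKM in CML and 42.4, 33.4 and 24.6 RPKM in naive Tregs. Its groups overlapped between CML replicate 1 and naive replicate 3, and the log2 fold change was -0.92 (SE 0.39; limma adjusted p = 0.508). Mrps18a is one of 3 paralogs. Mrps18b had 4.12, 13.1 and 14.9 RPKM in CML and 11.6, 10.9 and 8.73 RPKM in naive Tregs, and Mrps18c had 13.99, 5.58 and 49.6 RPKM in CML and 7.14, 9.76 and 13.8 RPKM in naive Tregs. The groups of both paralogs overlapped.

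The largest positive log2 fold change of the family belonged to Mrpl36, a homolog of bacterial L36 in the large subunit, with 1.35 (SE 0.62; limma adjusted p = 0.535). It had 23.4, 19.5 and 31.1 RPKM in CML and 25.6, 7.38 and 3.32 RPKM in naive Tregs. The wide spread was in the naive group here, and naive replicate 1 lay above 2 of the 3 CML libraries. Mrpl36 and Mrps18a were named after their values were seen.

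Of the 77 members, 11 belong to the set of differential genes that the study selected on these same libraries, so their direction is not independent evidence. They make up 14.3% of the family, and 4.59% of all features tested belong to that set. All 11 had a log2 fold change above 0, as did 68.7% of the whole set in the present fit. They were Mrps6, Mrps7, Mrpl41, Mrpl43, Mrpl48 and Mrpl49 from above, and Mrpl17, Mrpl27, Mrpl40, Mrpl54 and Mrps14, whose groups overlapped. Mrpl17, which lies near the tunnel exit, had 34.9, 11.4 and 25.5 RPKM in CML and 10.2, 15.7 and 7.15 RPKM in naive Tregs, and its log2 fold change was 0.99 (SE 0.46; limma adjusted p = 0.550). CML replicate 2 was within the naive range. Mrpl40 had 34.5, 5.83 and 59.2 RPKM in CML and 21.7, 24.0 and 19.7 RPKM in naive Tregs. CML replicate 2 was the lowest and the other CML libraries the highest of all 6, and the log2 fold change was 0.10 (SE 0.71; limma adjusted p = 0.971). It was -0.55 without CML replicate 3 and -0.17 without CML replicate 1.

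Mrps14, in the head of the small subunit, repeated that order with 38.7, 12.8 and 53.0 RPKM in CML and 27.9, 29.5 and 22.8 RPKM in naive Tregs. Mrpl54 had 42.8, 20.7 and 49.3 RPKM in CML and 36.4, 24.9 and 34.2 RPKM in naive Tregs. Mrpl27, a homolog of bacterial L27 beside the peptidyl transferase center, had 9.40, 3.26 and 9.79 RPKM in CML and 6.90, 4.85 and 6.19 RPKM in naive Tregs. In all 3 genes CML replicates 1 and 3 were above every naive library and CML replicate 2 was below every one. Their log2 fold changes were 0.17, 0.16 and 0.18, and each turned negative without CML replicate 3 (-0.24, -0.07 and -0.06). With the 11 genes left out, 24 of the other 66 members were above 0, and the median log2 fold change was -0.18. No member was higher at an unadjusted limma p under 0.05, against 2.88% of the features left. Only 1 member, Mrps23, was still apart upward, against 4.80%. All 11 genes were chosen on these libraries and lay above 0, so leaving them out could not raise these values. The features left still hold the other genes of the study's set, so their shares are not a matched background.

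For 7 members, at least 1 library had no reads, and CML replicate 2 was such a library for each of them. Mrpl53 had no reads in CML replicate 1 either, where 3 reads would have given 1.10 RPKM. It reached 20.8 RPKM in CML replicate 3, compared with 3.24, 10.9 and 6.32 RPKM in naive Tregs. In CML replicate 2 the level of 3 reads was 10.1 RPKM for this gene, above 2 of the naive values. Mrpl50 reached 7.39 RPKM in CML replicate 1 and 12.8 RPKM in CML replicate 3, compared with 13.7, 17.6 and 10.04 RPKM in naive Tregs, with 7.54 RPKM allowed in CML replicate 2. Mrpl55 had 11.4 and 7.28 RPKM in the same CML libraries and 21.1, 10.5 and 8.95 RPKM in naive Tregs, with 8.93 RPKM allowed. Both are large subunit proteins specific to mitochondria.

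Mrps28, which takes the place of bacterial S1 in part, reached 14.98 RPKM in CML replicate 1 and 17.9 RPKM in CML replicate 3, compared with 21.3, 10.4 and 7.86 RPKM in naive Tregs, with 6.45 RPKM allowed in CML replicate 2. Mrps33 had 14.3 and 34.1 RPKM in these CML libraries and 31.8, 14.9 and 18.5 RPKM in naive Tregs, with 11.3 RPKM allowed. Mrps36 had 9.87 and 21.2 RPKM in these CML libraries and 5.67, 5.17 and 8.38 RPKM in naive Tregs. With 11.7 RPKM allowed, the 0 in CML replicate 2 does not exclude a naive level. For Mrps10, Mrps33 and Mrpl50, all 3 naive values also lay above the upper end of the 95% counting interval of CML replicate 2, at 7.34, 13.9 and 9.27 RPKM. For Mrps28 and Mrpl55 that end, 7.93 and 10.98 RPKM, lay above at least 1 naive value. The 70 members with reads in every library split evenly, with 35 above and 35 below 0 and a median log2 fold change of -0.02.

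**Figure D4:**
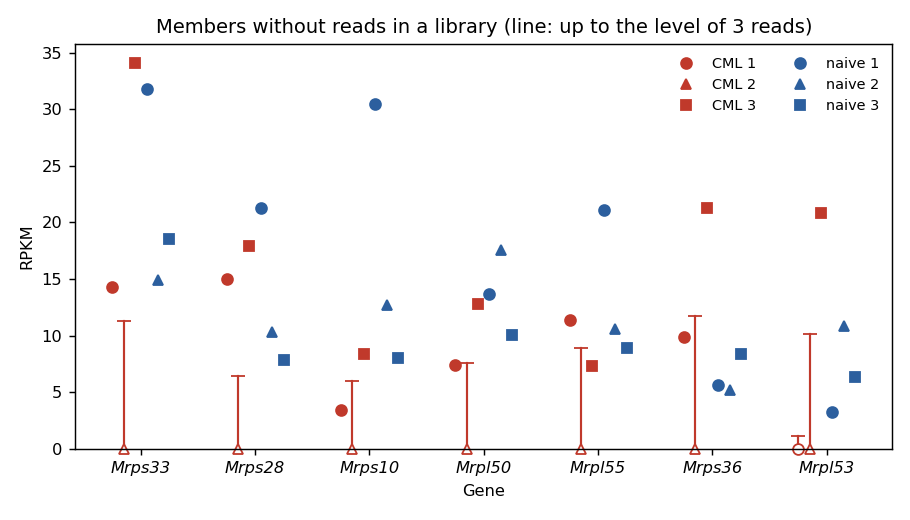
RPKM of the 7 members without reads in at least 1 library, by library (circles, triangles and squares are replicates 1, 2 and 3; CML red, naive blue). Open symbols are libraries at 0 with a line up to the level that 3 reads would give, which reaches 11.7 RPKM for Mrps36 in CML replicate 2 and 1.10 RPKM for Mrpl53 in CML replicate 1.

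The wider machinery of mitochondrial protein synthesis was followed in 5 further gene lists, and no gene of any list passed an adjusted p of 0.05. Reads behind single genes are not given for these lists. In CML replicate 2 low values rest on few reads, as 3 reads for Mrpl3, with a coding length of 1047, give 3.46 RPKM. This bears on Gadd45gip1, Mtg1, Pars2 and Tfb2m, among others, which are described below as lower in every CML library. The 15 translation factors had a median log2 fold change of -0.29, with 5 above 0. The 27 assembly and rRNA modification factors tested, of 33 listed, had a median of -0.45, with 5 above 0. The 20 aminoacyl-tRNA synthetases and related genes tested, of 21 listed, had a median of -0.47, with 5 above 0. The 14 transcription and RNA stability genes had a median of -0.42, with 5 above 0. These medians lay below the -0.18 of all features. In each of these lists the median moved toward 0 without CML replicate 2 or after quantile normalization. The median of all features moved as well, to -0.03 and -0.0068, and the medians of these lists stayed below it. The difference between the lists and the ribosomal proteins was not tested.

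Ribosomal proteins and factors with other symbols numbered 6 of 7 listed, with 2 above 0 and a median log2 fold change of -0.18. Ict1, a large subunit protein that frees stalled peptides, had 37.6, 38.8 and 46.5 RPKM in CML and 34.8, 33.4 and 32.7 RPKM in naive Tregs. Its groups did not overlap (log2 fold change 0.27, SE 0.19; limma adjusted p = 0.669). Gadd45gip1, also a large subunit protein, had 25.7, 3.61 and 24.2 RPKM in CML and 34.3, 48.9 and 28.7 RPKM in naive Tregs. It was lower in every CML library (log2 fold change -1.36, SE 0.65, limma adjusted p = 0.559). Ptcd3, a small subunit protein that binds RNA, had 35.1, 7.50 and 19.8 RPKM in CML and 31.9, 37.4 and 34.7 RPKM in naive Tregs, with overlapping groups. Chchd1, another small subunit protein, had 25.8, 10.1 and 35.5 RPKM in CML and 10.8, 17.6 and 27.6 RPKM in naive Tregs, and its groups overlapped too.

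Mtfmt, which formylates the initiator methionine, had the smallest adjusted p of these lists. It had 9.39, 5.19 and 6.03 RPKM in CML and 15.4, 19.1 and 15.5 RPKM in naive Tregs. All CML values were lower, with a log2 fold change of -1.20 (SE 0.34; limma adjusted p = 0.301). Taco1, an activator of the translation of cytochrome oxidase subunit I, had 5.79, 0 and 18.3 RPKM in CML and 7.19, 17.8 and 10.8 RPKM in naive Tregs. The release factor genes Mtrf1 and Mtrf1l had log2 fold changes of 0.46 and 0.42, with overlapping groups, and both turned negative when a single CML library was left out.

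Among the assembly factors, the GTPase gene Mtg1 had 5.44, 1.23 and 1.78 RPKM in CML and 9.23, 9.06 and 7.11 RPKM in naive Tregs, lower in every CML library (log2 fold change -1.46, SE 0.51; limma adjusted p = 0.425). The helicase gene Ddx28 had 4.61, 6.69 and 12.4 RPKM in CML and 3.09, 3.51 and 4.11 RPKM in naive Tregs, higher in every CML library (log2 fold change 0.87, SE 0.46; limma adjusted p = 0.583). Tfb1m, the methyltransferase of the small rRNA, had a log2 fold change of -1.24, and Mtg2, another GTPase gene, of 0.58, both with overlapping groups. Gatc, a subunit of the amidotransferase that makes glutaminyl-tRNA, had 4.21, 0 and 0.935 RPKM in CML and 9.06, 4.14 and 8.11 RPKM in naive Tregs. The CML values were low but overlapped naive replicate 2 (log2 fold change -1.85, SE 0.68; limma adjusted p = 0.447).

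Pars2, the prolyl-tRNA synthetase, had 1.77, 0 and 2.06 RPKM in CML and 4.09, 2.76 and 3.93 RPKM in naive Tregs, lower in every CML library (log2 fold change -1.16, SE 0.58; limma adjusted p = 0.570). Sars2, given above, and Gatb had the largest positive values of that list, 0.40 and 0.28. Tfb2m, needed to start mitochondrial transcription, had 5.20, 1.30 and 3.40 RPKM in CML and 6.65, 15.7 and 8.73 RPKM in naive Tregs, lower in every CML library (log2 fold change -1.44, SE 0.53; limma adjusted p = 0.446). Supv3l1, a helicase of mitochondrial RNA decay, had 11.2, 20.3 and 20.2 RPKM in CML and 5.70, 10.6 and 11.7 RPKM in naive Tregs, overlapping between CML replicate 1 and naive replicate 3 (log2 fold change 0.83, SE 0.39; limma adjusted p = 0.550). The elongation factor gene Tefm and the termination factor gene Mterf2 had log2 fold changes of -1.04 and 0.43, with overlapping groups.

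**Figure D5:**
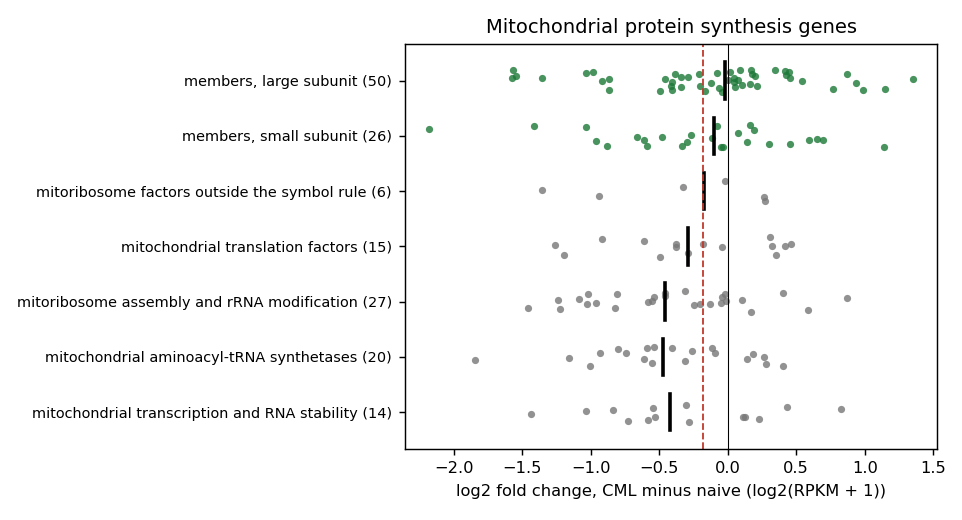
The log2 fold change between CML and naive Tregs on log2(RPKM + 1) for each gene (points) of the 2 subunits and of 5 further lists, with the number of genes tested in brackets, black bars at the medians and a red dashed line at the median of all features (-0.18). The medians run from -0.02 for the large subunit to -0.47 for the aminoacyl-tRNA synthetases, and single genes spread on both sides of 0 in every list.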

How the data were processed

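RNA-Seq of BM Tregs from 3 CML and 3 naive mice was used, 1 library per mouse, with groups and replicate numbers from the labels. The authors amplified RNA with a SMART-Seq kit, sequenced single-end reads and processed them with SeqMan NGen and ArrayStar; the labels name GRCm38 (mm10), and the gene annotation is not given in the sources used here. The deposited values were read as RPKM from their steps, a unit the sources do not name, and 0.001 was taken as no reads and set to 0. Depth was estimated as the reads that make RPKM times length whole; coding lengths came from GENCODE M21.

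The main test was limma (version 3.58.1, R version 4.3.3) on log2(RPKM + 1), with a trended prior variance and no replicate block, for 13923 of 36930 features with a mean of at least 1 RPKM. As the values are not counts, no count test was the main result. Replicate numbers were not taken to pair the samples. Correlations of same-numbered deviations were -0.0048, -0.0016 and -0.019. Deviations from the means of 3 libraries per group cannot exclude a shared batch. The code was tested on simulated data. Python 3.11.15 was used for the other steps.

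Members and lists were chosen with earlier results of these data known. Genes were named when they passed the adjusted threshold, when their groups did not overlap (up to 10 higher and 5 lower), when they had the 5 highest or lowest levels, when the study had listed them as differential, when a library was at 0, or when they had the 2 largest fold changes in either direction of a pathway list. Alternatives were other pseudocounts, filters and scalings, each library left out, a replicate block, other limma settings and library weights. Further ones were the members listed by the study left out and, chosen after seeing the data, voom on recovered reads. Repeated names (41) were kept as separate features. The result of 1 marker list is not reported here.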

Additional observations from a re-analysis of the deposited data

How the results depend on the processing

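No member passed an adjusted p of 0.05 under any of the alternatives tried (voom covered 53 members). Mrps6 had the smallest limma adjusted p in all of them except with the members listed by the study left out, where it was Mrps12 (0.433). The other counts moved. With a pseudocount of 5, 6 members were at least 1.5-fold higher and 11 lower (4.22% and 9.66% of all features). Without the filter, 2 members were lower at an unadjusted p under 0.05 (6.41% of all features), as with limma without the trend (2, against 6.79%). Quantile normalization, equal 75th percentiles and equal sums without the 10 highest features each gave 9 higher members at that p. The share of all features rose as well, from 2.92% to 5.33%, 4.14% and 4.24%. Quantile normalization left 1 member apart downward (9.12% of all features). Library weights gave 10 members at least 1.5-fold lower (16.7% of all features). With only the 11 members of the study's list left out, 0 members were higher at an unadjusted p under 0.05 (2.88% of the features left). The listed genes outside the family stayed in these shares. In that setting 1 member was apart upward (4.80%) and 4 were at least 1.5-fold higher (8.55%). Voom on recovered reads tested only the 53 members with whole reads, of 4341 features. Of these members, 2 were lower at an unadjusted p under 0.05 and 6 at least 1.5-fold lower. The shares of the 4341 features were 6.22% and 16.7%. Limma on RPKM gave 3 and 11 lower members for the same 53. The replicate block gave 2 higher members at an unadjusted p under 0.05 (2.44% of all features). It gave 1 call over all features in place of 24 and changed no call of a member. The labels do not state that the replicate numbers pair the samples. Apart from the smaller numbers of features tested, the cause of these changes was not tested.

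Leaving out 1 library at a time gave 2 to 9 higher and 0 to 9 lower members at an unadjusted p under 0.05, 8 to 20 apart upward and 2 to 14 downward, and 9 to 18 at least 1.5-fold higher and 10 to 22 lower. Over all features the same fits gave 1.87% to 6.03% and 3.79% to 10.2% at that p, 6.64% to 13.9% and 15.9% to 23.2% apart, and 8.73% to 13.01% and 17.2% to 29.1% at least 1.5-fold higher and lower. Over these fits the log2 fold change changed sign for some genes: it ran from -0.057 to 0.61 for Mrpl27, from -0.55 to 1.02 for Mrpl40 and from -0.24 to 0.75 for Mrps14 (all 3 negative without CML replicate 1, at -0.030, -0.17 and -0.015, and lowest without CML replicate 3), from -0.072 to 0.54 for Mrpl54, from -0.095 to 0.76 for Chchd1 and from -0.036 to 1.31 for Mtrf1 (lowest without CML replicate 3), from -0.11 without CML replicate 2 to 1.07 for Mtrf1l, and from -0.10 without naive replicate 1 to 0.66 for Gatb. Chchd1 was also negative (-0.056) without naive replicate 1. Over all features, calls fell from 24 to 0 without any 1 of the naive libraries. Depth limits what CML replicate 2 can show.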
